A study of Mus musculus with 8 samples.

Results

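The neuregulins and the ErbB receptors were followed across the cell types of the mouse cerebral cortex at postnatal day 25. The 7 members, 3 ligands (Nrg1, Nrg2 and Nrg3) and 4 receptors (Erbb2, Erbb3, Erbb4 and Egfr), were taken by gene symbol from the 32285 genes counted in single nuclei. Each of the 8 libraries came from a different animal: 4 were labelled wild type (WT) and 4 heterozygous for Chd8 (Chd8het), a chromatin remodeller. Both sexes were represented equally, by 2 animals in either genotype. All were C57BL/6J, and the medial cortex had been removed. The labels describe 4 pairs matched for litter and sex but do not say which libraries form them. Replicate 1 of every group was single-indexed and replicate 2 dual-indexed. The Chd8 allele was not given in the sources used here.

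Neuregulins are growth factors with an EGF-like domain, made mostly as membrane proteins that sheddases cut free. They bind ErbB3 and ErbB4, receptor tyrosine kinases that signal in dimers; ErbB2 has no known ligand of its own and joins as a partner, and the kinase of ErbB3 is weak. EGFR (ErbB1) binds EGF, TGF-alpha and related ligands rather than neuregulins. In the cortex, neuregulin signalling through ErbB4 is known for its part in interneuron migration and in the synapses that excitatory neurons make on interneurons, and ErbB3 is known from the glia that make myelin.

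Nuclei were assigned to types by marker genes, none of them a member. Of 77655 nuclei kept, 68947 (88.8%) received a class. Pvalb, L2/3 IT and the other names mean Pvalb-like and so on: resemblance by markers, with the suffix left out from here on. IT, ET, NP and CT stand for the intratelencephalic, extratelencephalic, near-projecting and corticothalamic classes of excitatory neurons, and OPC and COP for oligodendrocyte precursors and committed precursors. Each of the 17 types tested for genotype raised at least 4 of its own markers. The same markers had chosen the nuclei, so this is a description and no independent check of the types. For Lamp5 all 5 were raised but 0 stood among its 10 leading genes, which included Egfr and Erbb4; Erbb4 was also among the leading genes of Pvalb and Vip. All libraries held the same main classes of cortex, and 488 nuclei, 9 to 176 per library, resembled striatal projection neurons and were kept apart. Chd8 itself stood at 79.0 ± 2.80 CPM (SD, n = 4) in libraries labelled WT. In libraries labelled Chd8het it stood at 80.2 ± 6.41 CPM (SD, n = 4). Whether the allele changes these counts is not known from the sources used here. CPM are UMI counts per M counts of the same library and type. The ranges, 75.04 to 81.6 and 75.9 to 89.7 CPM, overlapped, so the level of Chd8 did not check the labels.

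The members lie on 7 separate loci of GRCm38. Erbb4 (ENSMUSG00000062209) spans 1075.9 kb of the minus strand of chromosome 1 (68032186 to 69108059), Nrg1 (ENSMUSG00000062991) spans 1069.5 kb of chromosome 8 (31814551 to 32884029) and Nrg3 (ENSMUSG00000041014) spans 1104.1 kb of chromosome 14 (38368952 to 39473088). Egfr (ENSMUSG00000020122, chromosome 11, 16752203 to 16918158) spans 166.0 kb. Erbb2 (ENSMUSG00000062312, chromosome 11, 98412470 to 98437716) and Erbb3 (ENSMUSG00000018166, chromosome 10, 128567523 to 128589652) are short, with 25.2 and 22.1 kb. In nuclei, reads from introns can add to the count of a long gene.

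Promoters were taken from RefSeq (GRCm38.p6) for the 4 members matched there, and 3 are shown because most results below turn on their genes. Each runs from 250 bases before to 50 bases after the annotated start, 5′ to 3′ on the strand of the gene, and capitals mark CpG dinucleotides. Erbb4 is at chr1:69108010-69108309 (minus strand), Egfr at chr11:16751953-16752252 (plus strand) and Nrg3 at chr14:39473039-39473338 (minus strand).
Erbb4: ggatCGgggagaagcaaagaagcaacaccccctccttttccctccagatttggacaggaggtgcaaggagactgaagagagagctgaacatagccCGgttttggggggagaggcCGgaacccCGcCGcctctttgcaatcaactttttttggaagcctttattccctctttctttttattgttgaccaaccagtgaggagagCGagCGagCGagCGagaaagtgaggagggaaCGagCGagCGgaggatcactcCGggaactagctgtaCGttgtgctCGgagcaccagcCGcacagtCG
Egfr: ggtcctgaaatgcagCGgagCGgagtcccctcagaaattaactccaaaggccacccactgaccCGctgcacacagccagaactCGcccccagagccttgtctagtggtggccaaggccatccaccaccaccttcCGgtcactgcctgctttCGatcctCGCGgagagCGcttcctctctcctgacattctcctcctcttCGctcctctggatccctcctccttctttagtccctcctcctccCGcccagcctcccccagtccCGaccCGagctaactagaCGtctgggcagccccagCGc
Nrg3: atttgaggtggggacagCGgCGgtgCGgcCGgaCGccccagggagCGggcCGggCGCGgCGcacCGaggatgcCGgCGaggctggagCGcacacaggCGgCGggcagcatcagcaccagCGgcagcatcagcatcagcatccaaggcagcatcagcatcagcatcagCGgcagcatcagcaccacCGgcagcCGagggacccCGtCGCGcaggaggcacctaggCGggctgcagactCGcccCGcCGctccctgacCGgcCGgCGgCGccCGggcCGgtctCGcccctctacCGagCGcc

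The promoter of Nrg3 has 36 CpG, that of Erbb4 17 and that of Egfr 15. The matched promoter not shown, that of the barely detected Erbb2, has 21. The median over 32851 promoters of this length was 7. Of these promoters, 93.8% had fewer CpG than that of Nrg3, 75.2% fewer than that of Erbb2, 68.6% fewer than that of Erbb4 and 65.4% fewer than that of Egfr. A search on both strands found no TATA box (TATAAA, in 13.6% of all promoters) and no SOX site (ACAAAG, 18.7%) in any of the 4. It found 1 GC box (GGGCGG, 35.7% of all promoters) in that of Egfr and none in the others. An E-box (CANNTG, 72.3%) was found once in that of Erbb2 and in none of the 3 shown. No match overlapped another, and a match or its lack describes these windows alone.

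Nrg1, a ligand best known for its action on interneurons and on myelinating glia, was highest in excitatory neurons. In L4/5 IT nuclei its 8 libraries ran from 6372 to 7705 CPM with a median of 6892. The next types were L6b with 5102 ± 560.4 CPM, L5 IT with 4957 ± 392.9, L2/3 IT with 4372 ± 345.2 and L6 IT with 4360.1 ± 542.2 (SD, n = 8). L5/6 NP and L5 ET nuclei were the lowest of the excitatory types, at 2409 ± 241.5 and 2143 ± 291.0 CPM. L4/5 IT exceeded L6b, L6 CT exceeded L5/6 NP, and L5/6 NP exceeded L5 ET, each in 8 of 8 libraries. The adjusted p was 0.0424 for each (exact sign-flip permutation test, two-sided). Here and below, types were ordered by mean CPM over these same libraries, so the neighbours tested were chosen from the tested values. The neighbours from L6b down to L6 CT did not differ beyond their spread. Striatal nuclei, too few to be ordered, had 573 to 5727 CPM of Nrg1 (median 4518), so that some of their libraries lay among the excitatory types. Macrophages, also not ordered, had 1789 ± 687.6 CPM.

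Nrg1 was lower in interneurons. Pvalb nuclei had 781 ± 87.8 CPM, Sst 554 ± 169.1, Vip 754 ± 146.6 and Lamp5 1508 ± 184.7 (SD, n = 8). All inhibitory nuclei were 5.44-fold below excitatory nuclei for Nrg1 (log2 difference -2.44 ± 0.06, SE, edgeR adjusted p = 1.37e-16, lower in 8 of 8 libraries).

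Glia held Nrg1 UMIs as well, in COP (1569 CPM), OPC (1285 CPM), microglia (1012 CPM), astrocytes (775 CPM) and oligodendrocytes (521 CPM). They are given beside the excitatory markers counted in the same nuclei. In all excitatory nuclei there were 1.06 ± 0.06 Nrg1 UMIs per UMI of the 6 excitatory markers (SD, n = 8), and the excitatory types ran from 0.522 ± 0.06 (L5 ET) to 1.43 ± 0.11 (L4/5 IT). The ratio was 0.95 ± 0.16 in astrocytes, 0.85 ± 0.15 in oligodendrocytes, 1.14 ± 0.14 in OPC and 1.24 ± 0.20 in COP. In microglia it was 0.78 ± 0.13, and the highest library (0.981) lay below the lowest of all excitatory nuclei (0.996). All 6 excitatory markers had UMIs in each of these glial types, with summed levels of 499 to 813 CPM in oligodendrocytes and 1052 to 1501 CPM in microglia. The part of free neuronal RNA in the glial Nrg1 was not tested. In Pvalb and Lamp5 nuclei the ratio was higher, at 1.79 ± 0.13 and 1.75 ± 0.19, with no library below 1.504. In Sst nuclei it was 0.984 ± 0.27, between the glial means. In Vip nuclei it was 0.619 ± 0.10, lower than the mean of each of these glial types.

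Nrg3, a ligand of ErbB4 made chiefly in the nervous system, was high in every neuronal type. L6b led with 8432 to 10519 CPM and a median of 9266, followed by L5/6 NP (8558 ± 701.9), L6 CT (7655 ± 238.7) and Sst (7388 ± 998.4 CPM, SD, n = 8). L6b exceeded L5/6 NP in 8 of 8 libraries (exact permutation adjusted p = 0.0424). Among the 20 types ordered, Vip was the lowest neuronal type at 4503 ± 608.4 CPM, still above OPC (2307 ± 236.4 CPM) in 8 of 8 libraries (exact permutation adjusted p = 0.0424). Striatal nuclei, not ordered, had 3728 ± 1023.5 CPM. Oligodendrocytes had the least, 741 ± 172.4 CPM. Relative to the excitatory markers, Nrg3 stood at 1.53 ± 0.06 in excitatory nuclei, at 14.2 ± 2.07 in Pvalb and 13.2 ± 2.21 in Sst nuclei. In OPC the ratio was 2.06 ± 0.25 (lowest library 1.60), and in astrocytes 1.07 ± 0.16. The reads of Nrg3 share their locus with 3 genes of the opposite strand (Nrg3os, Gm20642 and Gm20641), which held 786668 UMIs beside 3363803 of Nrg3. The strand setting of the counting was not given in the sources used here, so reads of the overlapping genes cannot be told apart.

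Nrg2 (ENSMUSG00000060275, chromosome 18, 36017652 to 36197380, 179.7 kb), the third ligand, was highest in Lamp5 nuclei, a class that includes neurogliaform cells. The 8 libraries there ran from 278 to 409 CPM with a median of 336, against 189 ± 20.5 CPM in L5/6 NP, the next of the 20 types ordered (higher in 8 of 8 libraries, exact permutation adjusted p = 0.0424). Striatal nuclei and macrophages, too few to be ordered, had 228 ± 93.8 and 228 ± 76.5 CPM. Most other neuronal types and OPC (169 ± 18.8 CPM) lay between 105 and 176 CPM. Oligodendrocytes had 24.5 ± 7.62 CPM. Per kb of gene span, Nrg2 in Lamp5 nuclei reached 1.86 ± 0.24 CPM per kb, above Nrg1 (1.41 ± 0.17) in 7 of 8 libraries and below Nrg3 (4.61 ± 0.25) in 8 of 8. As CPM, Nrg1 was the higher, with 1508 against 333 CPM for Nrg2. UMI counts need not grow in proportion to span, so values per kb are a scale and not corrected levels.

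Erbb4, the receptor through which neuregulins act on interneurons, was high in 3 of the 4 interneuron types and low in excitatory neurons. Pvalb nuclei had 11168 to 13249 CPM with a median of 11685. Lamp5 followed with 9150.3 ± 784.9 and Vip with 8899 ± 948.8 CPM (SD, n = 8). Pvalb exceeded Lamp5 in 8 of 8 libraries (exact permutation adjusted p = 0.0424), whereas Lamp5 and Vip did not differ beyond their spread (adjusted p = 0.8312). Sst nuclei, the other large interneuron class, had 964 to 2035 CPM with a median of 1280. Of the types too few to be ordered, striatal nuclei had 781 to 5736 CPM of Erbb4 (median 1582) and macrophages 98.8 to 6381 CPM (median 1477), so that their libraries spread from low to high levels.

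Excitatory types had between 53.5 ± 19.2 (L2/3 IT) and 100.1 ± 80.4 CPM (L6b) of Erbb4, besides the untested Car3 type (236 ± 107.4 CPM). In all excitatory nuclei the libraries labelled WT had 47.0, 59.2, 103 and 95.4 CPM and those labelled Chd8het had 60.3, 215, 70.2 and 74.3 CPM. The library of Chd8het male 2 stood above the other 7. It was also the highest of the 8 in the summed inhibitory markers (23.5 CPM) and oligodendrocyte markers (178 CPM, against 101 to 176 CPM in the others) of these nuclei. Erbb4 was 5.71 ± 1.78 UMIs per UMI of the 5 inhibitory markers in excitatory nuclei and 6.998 ± 0.26 in inhibitory nuclei, and all 5 inhibitory markers had UMIs there (9.99 to 17.4 CPM in sum in WT, 11.3 to 23.5 CPM in Chd8het libraries). The part of RNA from interneurons and oligodendrocytes in these low counts was not tested.

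**Figure D1:**
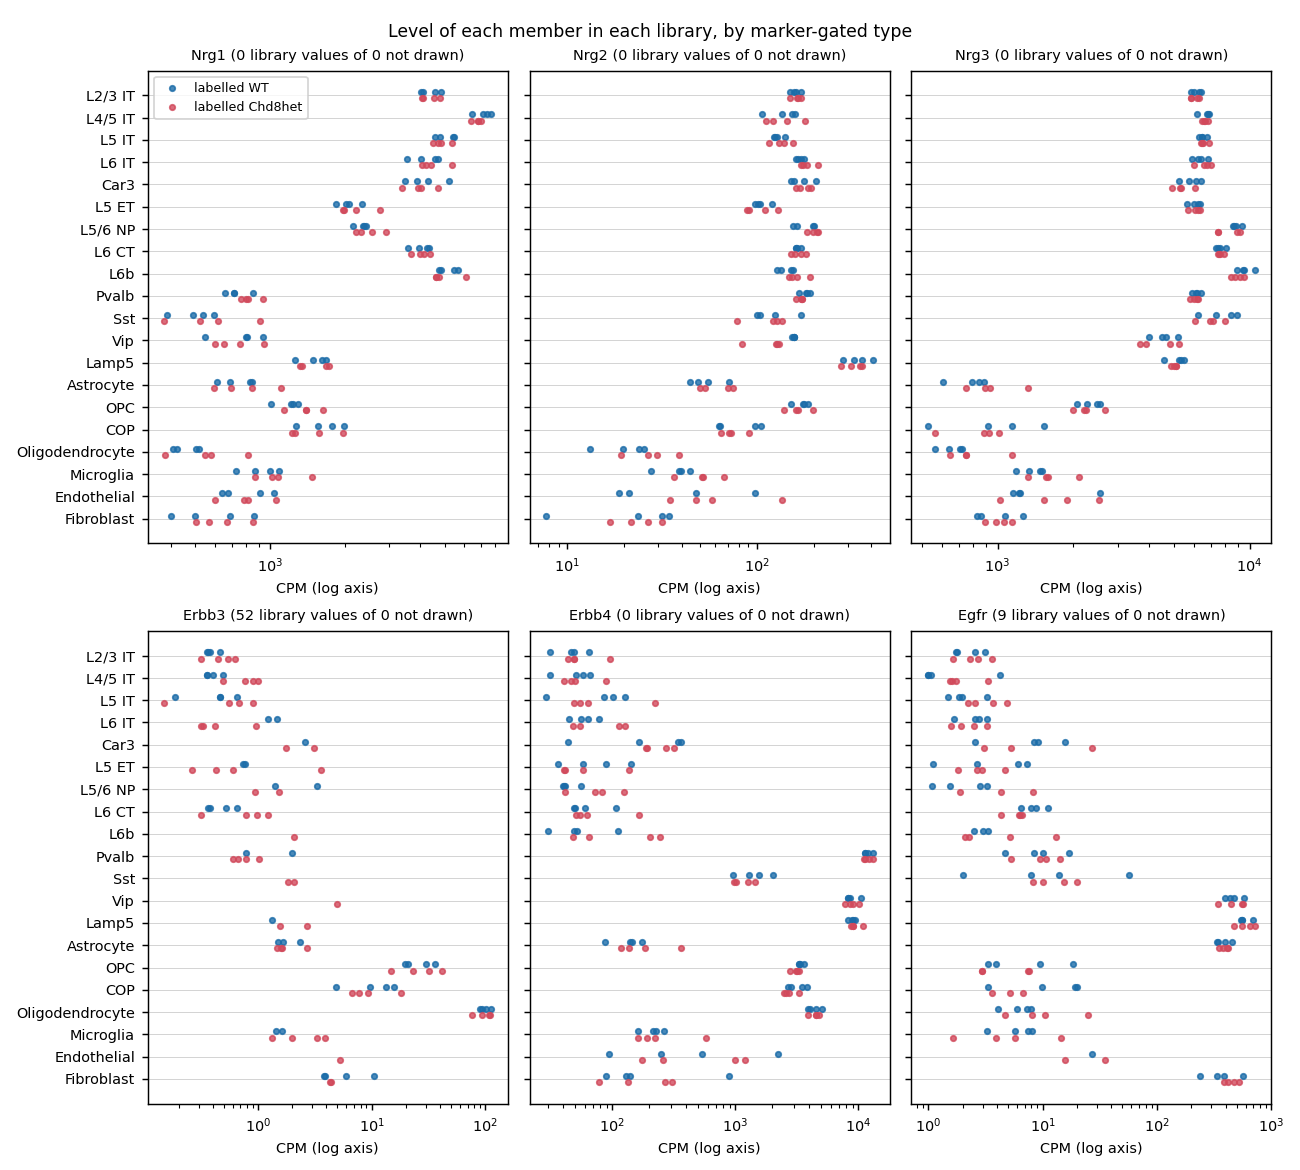
Level of 6 members, Erbb2 left out (CPM, log axis; values of 0 not drawn), in 20 marker-gated types, with 1 point per library, blue for libraries labelled WT and red for libraries labelled Chd8het. Erbb4 splits into Pvalb, Vip and Lamp5 nuclei at 7759 to 13249 CPM, the oligodendrocyte lineage at 2496 to 5067 CPM, and excitatory types below 400 CPM, and the genotypes overlap in the highest type of each member tested.

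Counts in single nuclei thinned to 1000 UMIs gave the same picture of Erbb4. In Pvalb, 1250 of 1260 nuclei were positive (99.2%, exact 95% interval 98.6 to 99.6%), in Lamp5 98.3%, and in Vip 98.7%. For comparison, 5.48% of L2/3 IT nuclei were positive (5.04 to 5.95%). The excitatory types ran from 4.99% (L4/5 IT) to 11.2% (L6b). Median depths before thinning were 8340.5 UMIs in Pvalb and 9672 in L2/3 IT nuclei, and unthinned shares were 99.6 and 34.0%. Intervals cover counting error within these nuclei only.

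Sst nuclei did not share the uniform level of the other interneurons. Of 528 thinned Sst nuclei 198 were positive (37.5%, 33.4 to 41.8%, unthinned 71.7%), their median was 0 UMIs, and their 95th percentile was 8, the median of Lamp5 and Vip nuclei. The lowest library had 23.3%. Erbb4 was thus spread unevenly among Sst nuclei.

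**Figure D2:**
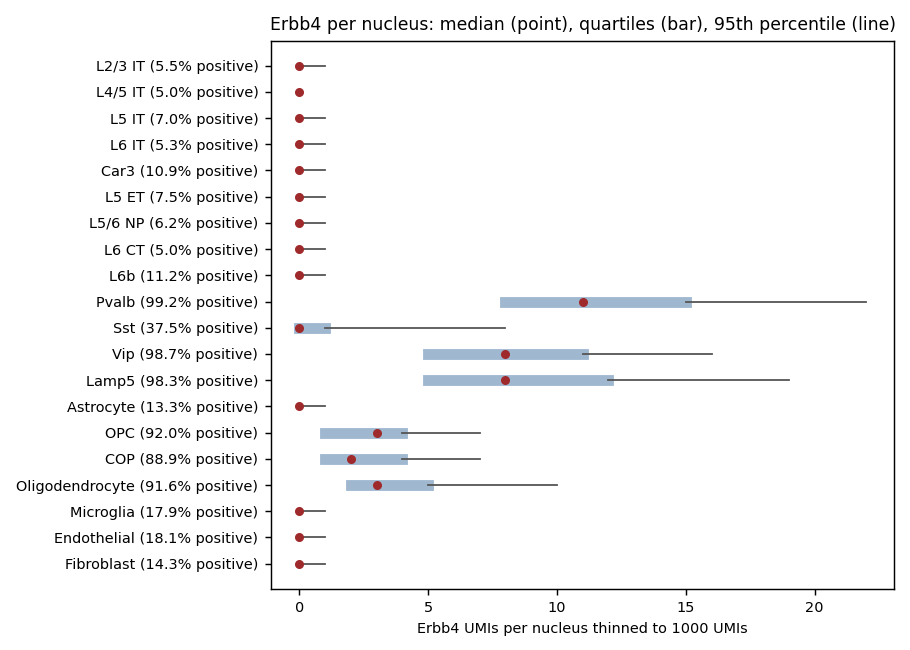
Erbb4 UMIs per nucleus (horizontal axis) after thinning to 1000 UMIs, by type, with the median as a point, quartiles as a bar and the line to the 95th percentile. Medians were 11 in Pvalb, 8 in Lamp5 and Vip, 3 in OPC and oligodendrocytes, 2 in COP and 0 in all other types, Sst included.

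Erbb4 was also high along the oligodendrocyte lineage. Oligodendrocytes had 3875 to 5067 CPM (median 4526), OPC 2767 to 3600 CPM (median 3307) and COP 2496 to 3871 CPM (median 2793). Oligodendrocytes exceeded OPC in 8 of 8 libraries (exact permutation adjusted p = 0.0424). In thinned nuclei 91.6% of oligodendrocytes and 92.0% of OPC were positive, against 13.3% of astrocytes and 17.9% of microglia, with median depths of 3264, 2882, 2661 and 1462 UMIs. Per UMI of the inhibitory markers there were 135 ± 25.1 Erbb4 UMIs in oligodendrocytes and 45.0 ± 11.8 in OPC. The ratio was 4.46 ± 1.76 in astrocytes and 4.14 ± 1.76 in microglia, within the span of the interneuron types, 1.42 ± 0.34 (Sst) to 14.2 ± 0.94 (Pvalb). The part of free interneuron RNA in the glial Erbb4 was not tested.

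Erbb3, the neuregulin receptor with the weak kinase, was found almost only in that lineage. Oligodendrocytes had 113, 101, 93.5 and 89.9 CPM in the libraries labelled WT and 110, 93.8, 108 and 76.6 CPM in those labelled Chd8het, in the order male 1, male 2, female 1, female 2. The genotypes overlapped. OPC followed with 27.3 ± 9.14 CPM, COP with 10.7 ± 4.61 and fibroblasts with 4.11 ± 3.35 CPM, and each of these 3 steps held in 8 of 8 libraries (exact permutation adjusted p = 0.0424 for each). COP and fibroblasts had only 25 and 7 UMIs in all, and macrophages, not ordered, 5 UMIs (11.3 ± 13.5 CPM). No other type among the 20 ordered exceeded 1.69 CPM. After thinning, 331 of 3701 oligodendrocytes (8.94%) and 0.06% of L2/3 IT nuclei were positive. Erbb3 is the only member with such a short span among those well detected, and levels are therefore also given per kb. As CPM, oligodendrocytes had 98.2 of Erbb3 and 4423 of Erbb4. Per kb of span they had 4.44 ± 0.55 CPM per kb of Erbb3 against 4.11 ± 0.39 of Erbb4, with Erbb3 higher in 4 of 8 libraries. These values depend on the scaling by span, which need not give comparable levels. In OPC the values were 1.24 ± 0.41 and 3.01 ± 0.22 CPM per kb, with Erbb3 lower in 8 of 8.

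Erbb2, the partner receptor, was barely seen, with 152 UMIs in all nuclei (0.185 to 0.412 CPM per library). L6 CT nuclei held 34 and astrocytes 25 of these UMIs, or 0.648 ± 0.50 and 1.60 ± 0.92 CPM, and fibroblasts held 7 (3.76 ± 2.60 CPM). No UMI was counted in 9 types, Pvalb not among them; a count of 0 allows up to 0.510 CPM in Lamp5 nuclei and up to 6.48 CPM in macrophages, taking 3 counts over the 8 libraries as the limit. Whether the other types lack Erbb2 was not detectable at this depth. The gene overlaps Mien1 of the opposite strand, which had 2791 UMIs.

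Egfr, the receptor of EGF and TGF-alpha, was high in 2 interneuron types and in astrocytes and fibroblasts. Lamp5 nuclei had 470.0 to 726 CPM (median 561), Vip 344 to 581 CPM (median 461), fibroblasts 237 to 574 CPM (median 406) and astrocytes 338 to 455 CPM (median 389). Macrophages, too few to be ordered, had 287 ± 210.3 CPM from 115 UMIs. No step between neighbours in this order passed (exact permutation adjusted p = 0.0712, 0.4251 and 0.7656), but the first and the last, Lamp5 and astrocytes, did not overlap, a pair that was not tested. Astrocytes exceeded the next of the 20 types ordered, Sst (16.9 ± 17.3 CPM), in 8 of 8 libraries (exact permutation adjusted p = 0.0424). Mural nuclei were not ordered, and 4.11% of them were positive after thinning, against 0.76% of Sst nuclei. In thinned nuclei 42.1% of Lamp5, 33.4% of Vip, 30.8% of astrocytes and 26.0% of fibroblasts were positive, against 1.19% of Pvalb and 0.26% of L2/3 IT nuclei. Egfr overlaps Egfros of the opposite strand, which had 4514 UMIs beside 17468 of Egfr. Per kb, Egfr in Lamp5 nuclei reached 3.60 ± 0.52 CPM per kb, below Erbb4 (8.51 ± 0.73) in 8 of 8 libraries. In astrocytes the order was turned, 2.33 ± 0.25 for Egfr against 0.157 ± 0.08 for Erbb4, with Egfr higher in 8 of 8.

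Over all 114 neighbouring steps in the orders of 6 members (Erbb2 left out), 21 passed the exact test after adjustment and 93 did not. The smallest p that 8 libraries allow is 0.00781. The neighbours and the direction of each step were set by the same values, and the p-values do not account for that choice. When levels were taken as UMIs per nucleus in place of CPM, 71 of the 114 steps kept their direction. On that scale 54 passed, counted in either direction, so some of them may run against the order by CPM.

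**Figure D3:**
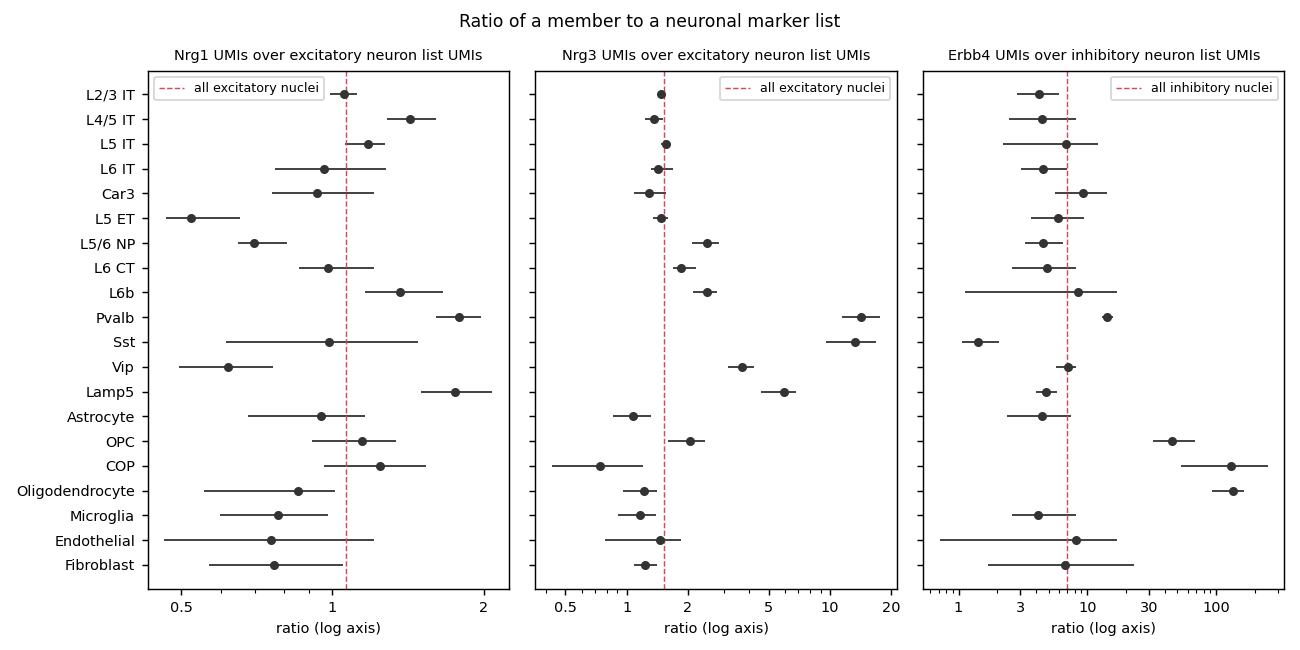
Ratio of Nrg1 and Nrg3 UMIs to the UMIs of 6 excitatory markers, and of Erbb4 to 5 inhibitory markers, by type (log axes), with the mean of 8 libraries and bars from the lowest to the highest library. Dashed lines give the ratio in all excitatory (1.06 and 1.53) or all inhibitory nuclei (6.998). Nrg1 lies on both sides of the line in glia and in excitatory types, and Erbb4 in OPC, COP and oligodendrocytes lies well to its right.

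Contrasts between types were then tested on summed counts with a block for library, over all genes. Between inhibitory and excitatory nuclei, 5 of 6 members tested passed, where 54.6% of all 20296 genes did. Erbb4 was 94.9-fold higher in inhibitory nuclei (log2 difference 6.57 ± 0.19, SE, edgeR adjusted p = 3.07e-15) and Egfr 49.2-fold higher (5.62 ± 0.07, edgeR adjusted p = 3.03e-19). Nrg2 was higher too, by 0.25 ± 0.05, but over 16 alternatives it ran from 0.09 to 0.43 and did not pass in all of them. By type, Lamp5 (333 CPM) and Pvalb (175 CPM) lay above all excitatory nuclei (147 CPM) for Nrg2. Sst (120 CPM) and Vip (136 CPM) lay below. Nrg3 was lower in inhibitory nuclei by a small amount (-0.29 ± 0.03, edgeR adjusted p = 7.47e-07). Erbb3 did not pass (0.07 ± 0.39, edgeR adjusted p = 0.894).

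Within interneurons, Pvalb against Sst gave 4 of 5 members called (36.2% of all genes). Erbb4 was 9.37-fold higher in Pvalb nuclei (3.23 ± 0.07, edgeR adjusted p = 5.12e-28), and Nrg1 (0.54 ± 0.08) and Nrg2 (0.57 ± 0.09) were higher by less. Nrg3 was lower in Pvalb nuclei (-0.25 ± 0.05). Its order depends on the scale: as UMIs per nucleus the difference was 0.07 ± 0.08 and did not pass.

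Against Vip, Pvalb nuclei passed for 4 of 5 members (36.4% of all genes), and against Lamp5 for 5 of 5 (43.6%). The receptors moved in opposite directions. Erbb4 was higher in Pvalb nuclei by 0.42 ± 0.06 and 0.44 ± 0.04, while Egfr was lower by 46.3-fold against Vip (-5.53 ± 0.14, edgeR adjusted p = 1.71e-36) and by 55.4-fold against Lamp5 (-5.79 ± 0.11, edgeR adjusted p = 3.70e-32). Among ligands, Lamp5 nuclei had more Nrg1 (-0.90 ± 0.06) and Nrg2 (-0.88 ± 0.06) and less Nrg3 (0.31 ± 0.04) than Pvalb nuclei.

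Among excitatory neurons, 5 of 6 members passed between L2/3 IT and L6 CT (53.7% of all genes). Under a stricter gate, and without WT female 2, this fell to 3: Nrg1, Nrg3 and Egfr still passed, Erbb2 was not tested, and Erbb4 did not pass. Over 16 alternatives Erbb4 ran from -0.49 to -0.06, and Nrg3 was -0.01 and did not pass as UMIs per nucleus. The ligand differences were small, 0.17 ± 0.04 for Nrg1 and -0.28 ± 0.03 for Nrg3. Egfr (-1.49 ± 0.17, edgeR adjusted p = 1.24e-06) and Erbb2 (-2.63 ± 0.52, edgeR adjusted p = 0.000487) were lower in L2/3 IT, both at low levels, 2.44 against 7.24 CPM for Egfr and 0.099 against 0.648 CPM for Erbb2. The Erbb4 difference of -0.38 ± 0.12 was -0.06 ± 0.11 with doublets kept and did not pass. Against L5 ET, 3 of 5 members passed (44.0% of all genes): Nrg1 was 2.13-fold (1.09 ± 0.05, edgeR adjusted p = 5.22e-14) and Nrg2 1.59-fold (0.67 ± 0.06) higher in L2/3 IT. Erbb4 passed there at -0.38 ± 0.13 but was 0.45 ± 0.15 with doublets kept and 0.11 ± 0.11 under a stricter gate.

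In the oligodendrocyte lineage, 5 of 6 members passed between OPC and oligodendrocytes (60.8% of all genes), receptors and ligands in opposite directions. Erbb3 was 3.91-fold (-1.97 ± 0.11, edgeR adjusted p = 9.14e-17) and Erbb4 1.47-fold (-0.56 ± 0.06) lower in OPC. Nrg2 was 6.36-fold (2.67 ± 0.11, edgeR adjusted p = 2.46e-20), Nrg3 2.93-fold (1.55 ± 0.07) and Nrg1 2.33-fold (1.22 ± 0.06) higher. The excitatory markers were also higher in OPC, 979 to 1245 CPM against 499 to 813 CPM in oligodendrocytes, and their part in the ligand differences was not tested. Between astrocytes and OPC, 6 of 6 passed (53.6% of all genes). Egfr was 53.0-fold higher in astrocytes (5.73 ± 0.17, edgeR adjusted p = 1.19e-21), and Erbb4 20.2-fold (-4.34 ± 0.15) and Erbb3 15.5-fold (-3.95 ± 0.25) lower.

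**Figure D4:**
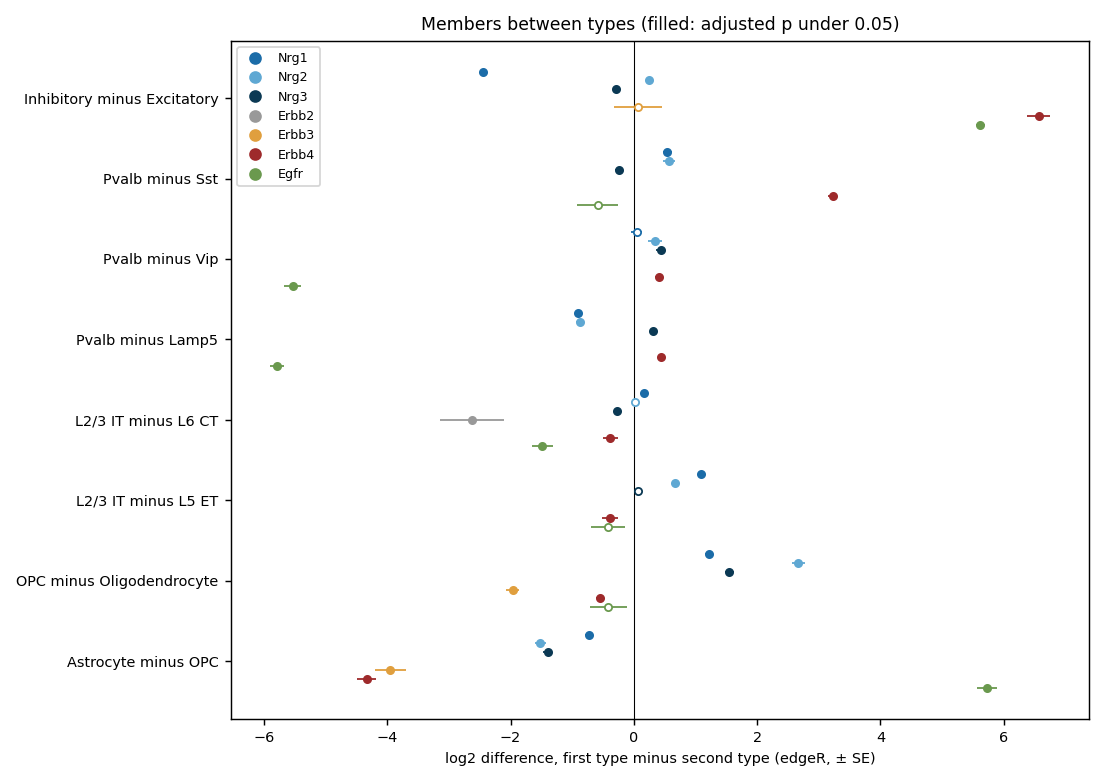
Log2 difference of each member between types, first minus second (edgeR, ± SE), with filled points for an adjusted p under 0.05. Egfr and Erbb4 span from -5.79 to 6.57 while Nrg3 stays between -1.40 and 1.55.

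Of the other 45 genes of the pathway, 8 are other ligands of the family, and 7 of them stayed below 22 CPM in their highest type. The exception, Tgfa, a ligand of EGFR, was highest in OPC with 118 ± 20.3 CPM, followed by endothelial nuclei with 89.4 ± 45.3 CPM. In OPC it was 3.70-fold higher than in oligodendrocytes (log2 1.89 ± 0.11, edgeR adjusted p = 8.56e-17) and 7.21-fold higher than in astrocytes. Nrg4, a neuregulin that binds ErbB4, was highest in Pvalb nuclei with 21.6 ± 4.96 CPM, and was 3.60-fold above Sst (1.85 ± 0.28, edgeR adjusted p = 1.11e-06). Hbegf, which encodes heparin-binding EGF, was 3.24-fold higher in astrocytes than OPC (1.70 ± 0.27). Areg, Ereg and Epgn had 56, 23 and 52 UMIs in all nuclei.

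Sheddases, regulators and relays showed their own patterns. Adam10 and Adam17 are proteases that cut ErbB ligands. Adam10 had about the same level in endothelial nuclei (248 ± 45.9 CPM) and microglia (241 ± 23.0 CPM), its highest types. Adam17 was highest in microglia (129 ± 16.6 CPM), and Bace1, the protease known to process Nrg1, in oligodendrocytes (91.7 ± 8.40 CPM). Erbin, a scaffold protein that binds ErbB2, had 599 ± 43.7 CPM in oligodendrocytes and was 7.87-fold higher in inhibitory than excitatory nuclei (2.98 ± 0.08, edgeR adjusted p = 2.48e-15). Gab1, a docking protein, was highest in oligodendrocytes with 653 ± 84.1 CPM. Shc4, an adaptor, was highest in OPC with 280.1 ± 29.4 CPM and 32.5-fold above oligodendrocytes (5.02 ± 0.14). Fyn, a kinase of the Src family, had 3259 ± 219.6 CPM in COP. In the contrast of OPC and oligodendrocytes, 9 of 38 pathway genes tested were higher and 16 lower in OPC, with 32.1 and 28.7% of all genes. Between inhibitory and excitatory nuclei 19 of 42 were higher and 12 lower, with 26.3 and 28.3% of all genes.

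Genes with the most similar pattern were sought by Pearson r of log2(CPM + 1) over 20 types, among 14348 genes. For Nrg3 (Gm20642 and Nrg3os, r = 0.991 and 0.990) and Egfr (Egfros, r = 0.990), the nearest were genes that overlap them on the opposite strand, and for Nrg2 it was the overlapping 4930471G03Rik (r = 0.932). The nearest others were 2310075C17Rik for Nrg1 (r = 0.933), Rims1 for Nrg2 (r = 0.920), Srrm3 for Nrg3 (r = 0.984), Sox2ot (r = 0.903) and Zfp536 (r = 0.892) for Erbb4, Gm12145 (r = 0.951) and Ninj2 (r = 0.948) for Erbb3, and Frem1 for Egfr (r = 0.875). The types share libraries, depth and free RNA, and these values are a description. Between members, Nrg1 and Erbb4 had r = -0.67 and Nrg2 and Nrg3 r = 0.82 over the same 20 types.

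The comparison of genotypes asked whether any member differed between libraries labelled Chd8het and WT within a type. Over 17 types, 78 tests of members gave 0 calls at an adjusted p under 0.05 with edgeR, where 0 of 177615 tests of all genes were called (0.0%). At an unadjusted p under 0.05 there were 3 members' tests (3.85%, against 2.55% of all genes). DESeq2 called 0 of 115 member tests and 3 of 383481 tests of all genes, and 2 member tests had an unadjusted p under 0.05 (1.74%, against 0.626%). Of the 78 fitted changes 40 were positive and 38 negative, with a median of 0.01, and the median over all genes lay between -0.01 and 0.01 in every type. With a term for each pair of sex and replicate number, no member was called either (31 of 186279 tests of all genes, 0.0166%), and 14 of 79 member tests had an unadjusted p under 0.05 (17.7%, against 5.96%). With a term for index type this held for 13 of 79 (16.5%, against 5.59%). Without a filter on low counts it held for 12 of 115 (10.4%, against 2.83%). Not all of the tests under 0.05 in these alternatives are named below. In the main fit, p-values set a difference against the spread between animals of the same sex and genotype. With the pair term they set it against the spread left within pairs.

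In the type where each member was highest, libraries of both genotypes overlapped. For Nrg1 in L4/5 IT, the libraries labelled WT had 7145, 7705, 6422 and 7404 CPM and those labelled Chd8het 6981, 6372, 6790.5 and 6802 CPM (males 1 and 2, then females 1 and 2). The log2 change was -0.11 ± 0.09 (SE, edgeR adjusted p = 1), the lowest library being Chd8het male 2. Nrg3 in L6b changed by -0.12 ± 0.10 (edgeR adjusted p = 0.998) and Nrg2 in Lamp5 by -0.11 ± 0.13 (edgeR adjusted p = 0.998).

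For Erbb4 in Pvalb nuclei, the libraries labelled WT had 11381, 11970, 11335 and 13169 CPM and those labelled Chd8het 11401, 13249, 11168 and 12155 CPM. Within each sex and genotype, the dual-indexed library was the higher. The change was -0.03 ± 0.09 (SE, edgeR adjusted p = 1, higher in Chd8het in 2 of 4 pairs). Erbb3 in oligodendrocytes changed by -0.08 ± 0.14 (edgeR adjusted p = 0.999). Egfr in Lamp5 nuclei changed by 0.01 ± 0.13 (edgeR adjusted p = 0.998). Over all nuclei the 7 members changed by between -0.06 (Nrg1) and 0.13 (Erbb2), none called.

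The widest fitted change was that of Erbb4 in L6b, an excitatory type where it is low. There, the libraries labelled WT had 30.3, 51.3, 112 and 48.7 CPM (9 to 44 UMIs) and those labelled Chd8het 64.7, 202, 245 and 47.7 CPM (21 to 155 UMIs). Chd8het male 2 and female 1 were high and the groups overlapped. The change was 1.21 ± 0.46 (SE, edgeR adjusted p = 0.867). With the pair term it was 1.06 ± 0.24 (edgeR adjusted p = 0.134), and without a filter on low counts, which changes the estimate of the spread, it passed (1.21 ± 0.24, edgeR adjusted p = 0.00073, where 0.204% of all genes in L6b were called). Under a stricter gate it was 0.30 ± 0.51. Leaving out Chd8het male 2 or female 1 gave 0.75 and 0.73. All 5 inhibitory markers had UMIs in L6b, with summed levels of 3.02 to 27.0 CPM in WT and 16.3 to 31.8 CPM in Chd8het libraries, and 8 of 8 oligodendrocyte markers summed to 132 to 169 and 173 to 238 CPM. Their part in the result was not tested.

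In L5/6 NP, Erbb4 had 39.5, 40.6, 55.8 and 41.7 CPM in libraries labelled WT and 72.4, 125, 41.5 and 82.1 CPM in those labelled Chd8het (0.84 ± 0.28, edgeR adjusted p = 1). The summed inhibitory markers were 8.24 to 12.8 CPM in WT and 10.8 to 19.4 CPM in Chd8het libraries. Like Erbb4, they were higher in Chd8het in 3 of 4 pairs and lower in the pair of female 1. The oligodendrocyte markers were 92.6 to 159.8 CPM in WT and 122 to 189.5 CPM in Chd8het libraries, higher in 3 of 4 pairs, with the widest gap between WT male 2 and Chd8het male 2 (92.6 and 189.5 CPM). Without Chd8het male 2 the change in Erbb4 was 0.55 ± 0.24. The part of these markers in the difference was not tested. In the main fit, without the pair term, the remaining test under an unadjusted p of 0.05 was Egfr in L6 CT, with 11.2, 8.79, 6.45 and 7.99 CPM in WT and 6.17, 6.63, 6.38 and 4.29 CPM in Chd8het libraries (-0.56 ± 0.19, edgeR adjusted p = 1, lower in 4 of 4 pairs). It rests on 27 to 61 UMIs per library. Egfr in oligodendrocytes had the second widest fitted change (0.91 ± 0.48, SE, edgeR adjusted p = 0.999, higher in Chd8het in 4 of 4 pairs), from 7 to 44 UMIs per library. The libraries labelled WT had 7.95, 7.26, 4.04 and 5.96 CPM there and those labelled Chd8het 10.5, 8.10, 4.71 and 24.98 CPM, so that the groups overlapped and Chd8het female 2 stood above the other 7.

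**Figure D5:**
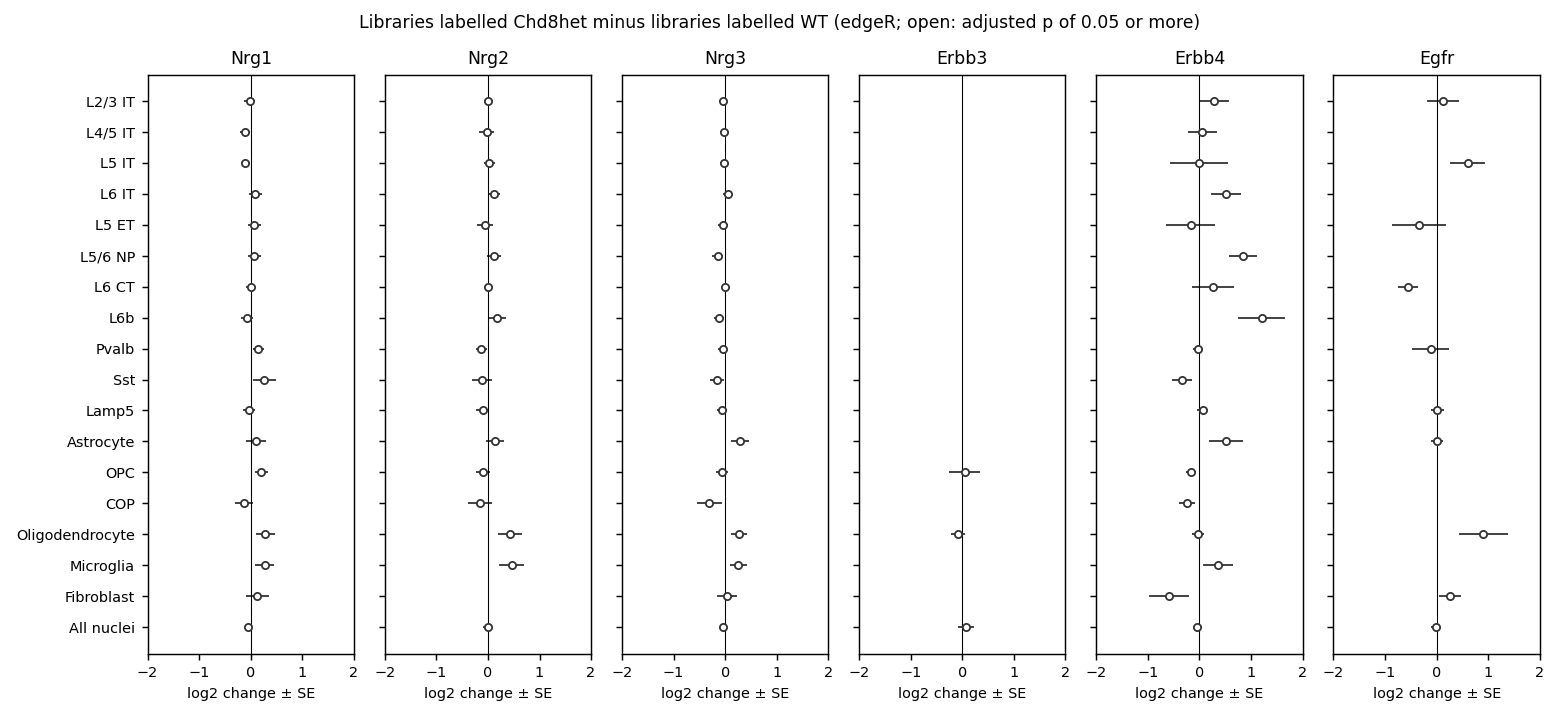
Log2 change of each member, libraries labelled Chd8het minus libraries labelled WT, by type (edgeR, ± SE), with all points open because none had an adjusted p under 0.05. Nrg1, Nrg2 and Nrg3 lie between -0.31 and 0.46, and Erbb4 in L6b is farthest from 0 at 1.21.

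No pathway gene was called either, over 568 tests in 17 types (296 positive, 272 negative, 11 at an unadjusted p under 0.05, or 1.94% against 2.55% of all genes). The smallest p values were those of Src, a kinase, in OPC (0.59 ± 0.18, edgeR adjusted p = 0.999) and Errfi1, an inhibitor of EGFR, in fibroblasts (0.73 ± 0.25) among positive changes. Among negative ones they were those of Jak2 in COP (-0.56 ± 0.22) and Pik3r3 in astrocytes (-0.38 ± 0.15). None of the 79 interaction tests of sex and genotype was called by edgeR (0.0% of all genes), and 5 had an unadjusted p under 0.05. They were Nrg1 and Nrg3 in fibroblasts, and Erbb4 in L5 ET (2.20 ± 0.69, edgeR adjusted p = 1), L2/3 IT (1.18 ± 0.45) and L5 IT (2.13 ± 0.89). Erbb4 is low in these excitatory types. In all excitatory nuclei Chd8het male 2 had 215 CPM of Erbb4, against 60.3 to 74.3 CPM in the other Chd8het libraries. The part of that library in these values was not tested.

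With index type in the model, 12 of 79 member tests were called over the 17 types, where 11.3% of all tests were called, a share near that of the members. The values below, for some of the 12, are therefore given as a description of these libraries. Nrg1 was higher in the dual-indexed libraries in L2/3 IT (0.22 ± 0.05, edgeR adjusted p = 0.013), Sst (0.56 ± 0.14, edgeR adjusted p = 0.0103), astrocytes (0.50 ± 0.11, edgeR adjusted p = 0.0141) and oligodendrocytes (0.42 ± 0.12, edgeR adjusted p = 0.037), in 4 of 4 pairs each. In astrocytes the excitatory markers summed to 679 to 876 CPM in single-indexed and 723 to 999.5 CPM in dual-indexed libraries. In oligodendrocytes the ranges were 516 to 680 and 499 to 813 CPM. Their part in the Nrg1 differences was not tested. Erbb4 was higher in Pvalb nuclei of the dual-indexed libraries (12636 against 11321 CPM, 0.20 ± 0.04, edgeR adjusted p = 0.00596). Erbb3 in OPC was lower, with 19.6 CPM in dual-indexed and 35.0 CPM in single-indexed libraries (-0.80 ± 0.23, edgeR adjusted p = 0.0282, lower in 4 of 4 pairs). The summed oligodendrocyte markers in OPC nuclei were 404 to 505 CPM in dual-indexed and 442 to 614 CPM in single-indexed libraries, lower in 3 of 4 pairs, and their part in the difference was not tested. Median UMIs per nucleus were 4963 to 5941 in single-indexed and 5989 to 7452 in dual-indexed libraries. Index type is the same as replicate number, so it cannot be told apart from litter or any other feature of the replicates, but it was balanced over genotype and sex.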

How the data were processed

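Single-nucleus RNA was counted in 8 libraries made with the 10x 3' kit, v3 chemistry. The deposited values are whole-number UMI counts per gene and barcode, made by the authors; the submitters' processing notes name STAR 2.7.9a, STARsolo, Cell Ranger and mm10, with no roles. No source used here gives the strand setting or says whether introns were counted. Library totals were 69.5 to 98.1 M UMIs over 97772 barcodes, and any pair of libraries shared 27 to 63 barcodes.

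Nuclei with at least 500 genes and at most 5% mitochondrial UMIs were kept (82168), and 4513 doublets predicted by Scrublet in scanpy 1.11.5 were removed. Nuclei were gated by fixed marker lists: scaled score at least 0.3 and a lead of 0.15 over the next list, a scoring rule set after the data were seen. In all, 4896 nuclei lay within 0.05 of the class lead and 29489 of 47548 excitatory nuclei got a finer type. The members and lists were chosen with earlier results of these data known.

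Counts were summed per library and type. Types with at least 30 nuclei in every library (17) were tested for genotype with the quasi-likelihood test of edgeR 4.0.16 (sex and genotype, minimum count 10, trimmed-mean scaling, Benjamini-Hochberg adjustment over all genes of the type, two-sided); DESeq2 1.42.0 was an alternative. Vip, with 28 nuclei in its smallest library, entered contrasts and orders (20 types with at least 20 nuclei per library). Types were compared with a block for library. Fits were tested on simulated data. In OPC, 74 of 100 genes changed by 1 on the log2 scale and 94 of 100 changed by 2 were recovered among 10224 genes. Of 176 calls there, 8 were false. False calls were 19 of 207 in all nuclei, 17 of 200 in L2/3 IT and 9 of 170 in Sst nuclei. With the pair term they were 16 of 187 in OPC. The simulated spread was estimated with the pair term and held no pair effect. These shares can therefore overstate what the main fit recovers in the real libraries.

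Named genes are all 7 members, the pathway genes with the smallest p in each direction and the 3 genes most like each member. Of the last, some are printed. For genotype, each member is given in its highest type, in all nuclei and wherever a fit called it. Of the calls for type contrasts and for index type, only some are printed. Other pathway genes, types with an unadjusted p under 0.05 in the main fit and Egfr in oligodendrocytes were chosen after their values were seen. The labels do not say which libraries are litter mates. Libraries that shared sex and replicate number deviated together (r 0.10 to 0.615 over types and pairs) and were taken as pairs in an alternative; this number is also the index type. Gene positions came from GENCODE M21 (GRCm38), to which 32158 of 32285 identifiers matched. Members' protein sequences were not used here.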

Additional observations from a re-analysis of the deposited data

Results flagged for a closer look

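In groups of 4 libraries of 1 genotype, 34 groups of printed values were examined for a library far from the rest, and chance marks about 1 in 20. Erbb4 in excitatory nuclei was 215 CPM in the library Chd8het male 2 and 60.3 to 74.3 CPM in the other 3 labelled Chd8het. Erbb4 in L5/6 NP was 55.8 CPM in WT female 1 and 39.5 to 41.7 CPM in the other 3 labelled WT. Egfr in Lamp5 nuclei was 694 CPM in WT female 1 against 551 to 562 CPM in the others.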

How the results depend on the processing

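No member was called for genotype under any alternative run except 1 without a filter on low counts, Erbb4 in L6b. The replicate block, which pairs libraries by sex and replicate number, changed no member's call (0 called) while the calls over all genes went from 0 to 31. The members called between L2/3 IT and L6 CT fell from 5 to 3 under a stricter gate and ranged from 3 (without WT female 2) to 5 with single libraries left out. The neighbouring steps that differ, counted in either direction, were 54 as UMIs per nucleus. With a library left out they ranged from 0 to 0. The smallest p is larger with 7 libraries, and more steps than the 21 of the main run must reach it to pass after adjustment. The 0 therefore says little about stability. Of the 114 steps, 98 to 103 kept their direction with a library left out.

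Reversed values were small or not called, except Erbb4 between L2/3 IT and L5 ET, which was 0.45 with doublets kept (edgeR adjusted p = 0.0164) and 0.11 under a stricter gate. Egfr in that contrast was 0.11 and 0.0087 in the same settings. Nrg3 there was -0.0829 as UMIs per nucleus, the scale on which Nrg3 between Pvalb and Sst was 0.0651 and Erbb3 between inhibitory and excitatory nuclei -0.0805. The last was -0.11 under a stricter gate, where Nrg1 between Pvalb and Vip was -0.0069. Nrg2 between L2/3 IT and L6 CT was -0.04 on library totals. Egfr by genotype in Lamp5 was -0.0035 without a count filter and -0.0395 with a stricter nucleus filter. The cause was not tested.

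With single libraries left out, genotype changes that crossed 0 ranged from -0.19 to 0.0 (Nrg2 in Lamp5), -0.0682 to 0.0325 (Nrg2 in all nuclei), -0.0081 to 0.22 (Erbb2 in all nuclei), -0.19 to 0.0093 (Erbb3 in oligodendrocytes), -0.0122 to 0.18 (Erbb3 in all nuclei), -0.089 to 0.0375 (Erbb4 in Pvalb), -0.11 to 0.0046 (Erbb4 in all nuclei), -0.0761 to 0.11 (Egfr in Lamp5) and -0.054 to 0.0458 (Egfr in all nuclei). Erbb4 in excitatory nuclei ranged from -0.22, without Chd8het male 2, to 0.67. Contrasts that crossed 0 were Erbb3 between inhibitory and excitatory nuclei (-0.25 to 0.20), Nrg1 between Pvalb and Vip (-0.0211 to 0.088) and Nrg2 between L2/3 IT and L6 CT (-0.0075 to 0.0279). Values of Erbb2, and of Erbb3 outside the oligodendrocyte lineage, rested on few UMIs.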
